A study of Mus musculus with 6 samples.

Results

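The genes described here are 9 neurotrophic factors and receptors of tooth innervation, found by gene name in the deposited count table: the ligands *Gdnf*, *Nrtn*, *Artn*, *Bdnf* and *Ntf3* and the receptors *Gfra1*, *Ngfr*, *Ntrk2* and *Ntrk3*. All 9 names were present among the 31613 genes of the table, and all 9 had enough counts to be tested. RNA was sequenced from dental papilla cells of first mandibular molars of C57BL/6J mice at postnatal day 6, in 3 libraries of control mice and 3 of *Dmp1*-Cre;*Setd2* fl/fl mice, here called cKO. Every library was made from RNA pooled over 3 biological replicates, and the list of animals given with the methods names fewer mice of each genotype for this collection than pools of separate mice would need. It is thus possible that an animal contributed to several pools of its group, in which case the p-values, which rest on the spread between pools, are too small. Both groups carry floxed *Setd2* according to the methods, where *Setd2* fl/fl mice served as controls, while the sample labels give the control genotype as wild type. *Setd2* encodes the histone methyltransferase that places H3K36me3, and the *Dmp1* promoter drives Cre in the odontoblast layer, so papilla cells outside that layer were not the target of the deletion.

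Neurotrophic factors are secreted proteins that keep neurons alive and guide their axons, and in the tooth they are made by the mesenchyme that sensory fibers later enter. The neurotrophins, which include BDNF and neurotrophin-3, bind a Trk tyrosine kinase receptor (TrkB, encoded by *Ntrk2*, and TrkC, encoded by *Ntrk3*) and the shared receptor NGFR. The GDNF family ligands bind a GFRα co-receptor held on the cell surface, and this complex activates the RET kinase. In developing teeth these genes are also known to be expressed by non-neuronal cells of the papilla, follicle and epithelium.

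The libraries differed in ways the genotype does not describe. Total counts were even, from 18557647 to 19210750 per library. *Setd2* was measured at 98.0, 96.5 and 92.0 CPM (read counts scaled to the size of each library) in control replicates 1, 2 and 3 and at 102, 98.5 and 96.0 CPM in cKO replicates 1, 2 and 3, a log2 fold change of 0.05 ± 0.09 (standard error). These counts cover the whole gene in all cells collected and do not check the genotype labels. The sum of 11 odontoblast markers was 71971 to 82046 CPM in the control libraries, 6073 and 4126 CPM in cKO replicates 1 and 2, and 37033 CPM in replicate 3, which therefore stood between the others and the controls. Most of this sum was *Col1a1*, at 54159 to 64929 CPM in controls and 4855, 3267 and 29999 CPM in cKO replicates 1, 2 and 3. At the thresholds given below, 8 of the 11 were lower, against 2.71% of all genes. *Cdo1* was higher, and *Smpd3* and *Ifitm5* were not called. The sum of 12 dental epithelium markers, most of it enamel matrix genes, was 30667 CPM in control and 50317 CPM in cKO replicate 3. It was 2241 to 7657 CPM in the other 4 libraries. Of genes on this list chosen after their values were seen, *Krt14* and *Krt5* were also highest in replicate 3 of both groups. In controls, however, *Amtn* was lowest in replicate 3 (1.98 CPM) and *Klk4* was even (91.5, 90.4 and 89.8 CPM). In cKO replicates 1, 2 and 3 *Klk4* was 4.64, 3.08 and 53.8 CPM. The 15 markers of the dental papilla, its defining genes *Msx1* and *Pax9* among them, were present in all libraries and summed to 5165 to 7948 CPM. Because of replicate 3, each result below is also given without it where that changes a call.

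Genes were called at the thresholds of the study, an unadjusted p under 0.05 with a log2 fold change whose size reached 0.58. By this rule 1 of the 9 genes was lower in the cKO group, *Bdnf*, and 1 was higher, *Ngfr*. In bulk RNA, fewer cells of a type and less RNA per cell cannot be told apart. Over all 16519 genes tested, 2.71% were lower and 1.10% were higher at these thresholds, and 9 genes are too few to read a share against that background. With the adjusted p in place of the unadjusted, edgeR called 0 of the 16519 genes (0.00% in each direction), while 729 lower genes and 523 higher ones had an unadjusted p under 0.05. DESeq2 made 115 lower calls (0.697%) and 24 higher calls (0.145%) on the adjusted p, with none of the 9 among them. At the thresholds of the study DESeq2 called 2 of the 9 lower (*Bdnf* and *Gfra1*) and 1 higher, against 2.71% and 1.28% of all genes, and the same counts came from edgeR with no filter on low counts, against 1.89% and 1.07%. With at least 10 counts required in every library, *Bdnf* and *Artn* were not tested and 0 of 7 members were lower and 1 was higher, against 2.52% and 1.04%. With the replicate number as a block, 2 were lower (*Bdnf* and *Gfra1*) and 0 were higher, against 4.37% and 2.05%. Voom with quality weights, which gives deviating libraries less weight, called 2 lower (*Bdnf* and *Gfra1*) and 2 higher (*Ngfr* and *Ntf3*), against 6.67% and 2.69%, and on its adjusted p *Gfra1* was lower and *Ngfr* and *Gdnf* were higher, against 5.98% and 2.40%. Leaving out cKO replicate 3 gave these same 4 genes, against 6.88% and 4.01%, and on the adjusted p *Gfra1* alone, lower, against 2.65% and 0.676%. Without replicate 3 of both groups, 2 of the 8 members still tested were lower (*Gfra1* and *Bdnf*) and 2 were higher (*Ngfr* and *Ntf3*), against 7.55% and 4.49% of all genes, and on the adjusted p *Gfra1* was lower and *Ngfr* and *Ntf3* were higher, against 4.48% and 2.33%.

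**Figure D1:**
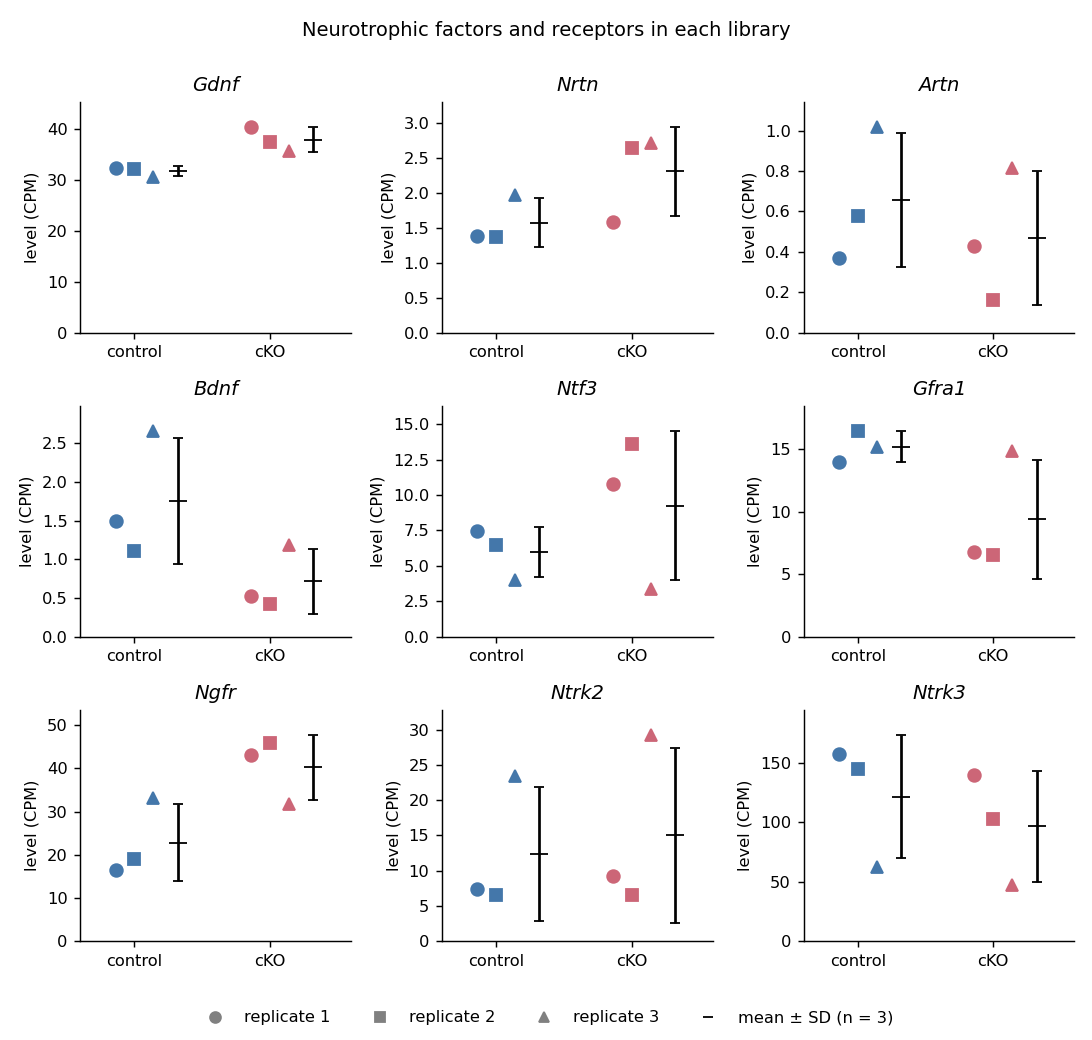
Level of each of the 9 genes in each library, in CPM (library-scaled counts, linear axes from 0), with control libraries in blue and cKO libraries in red. Marker shapes give the replicate number and the black bars give the mean ± SD of 3 libraries. The groups are separate only for Gdnf, and replicate 3 (triangles) stands apart from replicates 1 and 2 in both groups for Ntrk2, where it is high, and for Ntrk3, where it is low.

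The promoters of the 2 called genes are shown, since they are the members whose RNA level passed the thresholds. RefSeq gives 1 start for *Ngfr* and 7 starts for *Bdnf*, each with a window of 300 bases in GRCm38.p6, and the *Bdnf* window printed is the only one of the 7 that holds CGTCA. Capitals mark GGGCGG (the GC box) or its reverse complement in *Ngfr*, and CGTCA (the core of the cyclic AMP response element, which is part of the whole element TGACGTCA) in *Bdnf*. Both strands were searched.
Ngfr, chr11:95587649-95587948, minus strand: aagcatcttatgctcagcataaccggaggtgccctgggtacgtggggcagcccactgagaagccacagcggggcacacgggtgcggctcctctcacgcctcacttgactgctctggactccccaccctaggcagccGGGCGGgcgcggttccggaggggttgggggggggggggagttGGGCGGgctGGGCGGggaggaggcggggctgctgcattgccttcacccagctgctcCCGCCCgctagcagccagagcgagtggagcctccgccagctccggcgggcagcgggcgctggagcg
Bdnf, chr2:109692186-109692485, plus strand: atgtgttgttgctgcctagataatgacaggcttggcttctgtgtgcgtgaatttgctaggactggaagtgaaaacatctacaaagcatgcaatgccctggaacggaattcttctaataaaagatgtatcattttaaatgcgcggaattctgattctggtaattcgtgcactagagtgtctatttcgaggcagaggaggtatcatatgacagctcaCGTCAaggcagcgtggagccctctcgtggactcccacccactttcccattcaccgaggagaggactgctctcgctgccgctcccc
The *Ngfr* window held 4 matches to the GC box, 23 CG dinucleotides and no TATAAA. The *Bdnf* window held 1 match to the core, 12 CG dinucleotides and no whole element. Of 32851 mouse promoter windows of this length, 35.7% held GGGCGG, 20.8% held CGTCA, 13.6% held TATAAA and 1.79% held TGACGTCA, so the GC box and the core are common letters in such windows. The single *Gfra1* window held none of these motifs. These matches describe the letters only.

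Among the GDNF family ligands, *Gdnf* (chr15:7810846-7837575), the ligand for GFRα1, had the smallest SD relative to its mean of the 9 genes in both groups. Its levels were 32.3, 32.0 and 30.5 CPM in control replicates 1, 2 and 3 and 40.4, 37.4 and 35.6 CPM in cKO replicates 1, 2 and 3. All 3 cKO libraries were above all 3 controls, a separation that 15.2% of all genes tested showed in one direction or the other. The means were 31.6 ± 0.966 CPM and 37.8 ± 2.42 CPM (SD, n = 3 each). The log2 fold change was 0.26 ± 0.10 (standard error), which is under the size threshold, although its unadjusted p was under 0.05 (edgeR adjusted p = 0.647). Voom with quality weights gave 0.31 ± 0.07 (adjusted p = 0.0348), also under the size threshold. Within each replicate number the log2 ratio was 0.32, 0.23 and 0.22, so the difference was small but of like size for all 3 numbers.

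*Nrtn* (chr17:56751325-56757530), which encodes neurturin, was expressed at a low level. It was measured at 1.38, 1.37 and 1.98 CPM in the control libraries and at 1.58, 2.65 and 2.72 CPM in the cKO libraries, and the groups overlapped. The log2 fold change of 0.55 ± 0.32 did not pass the thresholds (edgeR adjusted p = 0.696). Leaving out cKO replicate 1, its lowest library of that group, gave 0.77 and a call, in a fit that called 1.25% of all genes higher and 2.24% lower. *Artn* (chr4:117926162-117929763), which encodes artemin, rested on 3 to 18 counts per library. Its levels were 0.371, 0.579 and 1.02 CPM in controls and 0.430, 0.159 and 0.815 CPM in cKO libraries. The groups overlapped and the log2 fold change of -0.48 ± 0.62 did not pass the thresholds (edgeR adjusted p = 0.852), and without replicate 3 of both groups *Artn* fell under the count filter.

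*Bdnf* (chr2:109674700-109727007), the ligand of TrkB, was called lower. It was present at 1.49, 1.11 and 2.66 CPM in control replicates 1, 2 and 3, from 28, 21 and 47 counts. In cKO replicates 1, 2 and 3 it was 0.526, 0.424 and 1.19 CPM, from 11, 8 and 22 counts. Replicate 3 was the highest library of each group, and its cKO value of 1.19 CPM overlapped control replicate 2. The means were 1.75 ± 0.813 and 0.715 ± 0.419 CPM (SD, n = 3 each). The fold change was 0.41, a log2 fold change of -1.29 ± 0.51 (edgeR adjusted p = 0.647), and within the replicate numbers the log2 ratio was -1.50, -1.38 and -1.16. With the replicate number as a block it was -1.31 ± 0.30 (edgeR adjusted p = 0.0833). The call was lost when control replicate 1 (log2 fold change -1.40), control replicate 3 (-0.86), or cKO replicate 1 (-1.10) or 2 (-1.03) was left out.

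The other neurotrophin, *Ntf3* (chr6:126101412-126166910), encodes neurotrophin-3, the ligand of TrkC. Levels of 7.48, 6.47 and 4.03 CPM were found in control replicates 1, 2 and 3, and of 10.8, 13.6 and 3.37 CPM in cKO replicates 1, 2 and 3. Replicate 3 was the lowest library in both groups, and the lowest of all 6 was a cKO library. With all libraries the log2 fold change was 0.63 ± 0.50 (edgeR adjusted p = 0.754). Without cKO replicate 3 it was 1.02 ± 0.28 (edgeR adjusted p = 0.102), and without replicate 3 of both groups 0.81 ± 0.19 (adjusted p = 0.0352). Within replicate number 3 the log2 ratio was -0.26, against 0.53 and 1.07 for numbers 1 and 2.

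*Gfra1* (chr19:58235604-58455909) encodes GFRα1, the co-receptor for GDNF. In controls it was 14.0, 16.5 and 15.2 CPM. In cKO replicates 1 and 2 it was 6.79 and 6.52 CPM, below every control, and in replicate 3 it was 14.9 CPM, inside the control range. The group means were 15.2 ± 1.24 and 9.42 ± 4.78 CPM (SD, n = 3 each), and the larger SD came from replicate 3. The log2 fold change of -0.69 ± 0.33 did not pass the p threshold (edgeR adjusted p = 0.673). It passed with the replicate number as a block (-0.79 ± 0.25, edgeR adjusted p = 0.202), with DESeq2 (-0.69 ± 0.35, DESeq2 adjusted p = 0.603) and without cKO replicate 3 (-1.19 ± 0.17, edgeR adjusted p = 0.0102). The libraries with low *Gfra1* were those with the lowest odontoblast marker sums, 6073 and 4126 CPM. *Bdnf* had the same order of cKO libraries as the odontoblast sum, replicate 2 lowest and replicate 3 highest. The dental epithelium sum had this order too, in cKO (7175, 2241 and 50317 CPM) and, as *Bdnf* did, in controls (7657, 2973 and 30667 CPM). In controls the odontoblast sum was instead lowest in replicate 1 (71971, 74234 and 82046 CPM). The part of cell makeup in *Gfra1* or *Bdnf* was not tested.

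*Ngfr* (chr11:95568818-95587735), which encodes the low-affinity receptor shared by the neurotrophins, was called higher. Control replicates 1 and 2 held 16.4 and 18.9 CPM and control replicate 3 held 33.1 CPM. cKO replicates 1, 2 and 3 held 43.0, 46.0 and 31.8 CPM, so the replicate 3 libraries of the 2 groups had nearly the same level and the groups overlapped there. The means were 22.8 ± 8.97 and 40.3 ± 7.49 CPM (SD, n = 3 each). The fold change was 1.77, a log2 fold change of 0.82 ± 0.29 (edgeR adjusted p = 0.626). Within the replicate numbers the log2 ratio was 1.39, 1.28 and -0.05. The call was lost in the fit with the replicate block (0.87 ± 0.35, edgeR adjusted p = 0.322), and without replicate 3 of both groups the log2 fold change was 1.34 ± 0.13 (adjusted p = 2.94e-04). The call was also lost without control replicate 1 (0.63), control replicate 2 (0.70) or cKO replicate 1 (0.78) or 2 (0.72).

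NGFR is also a surface protein of Schwann cells, the glia of peripheral nerves. The 15 Schwann cell markers summed to 68.2 to 81.2 CPM in controls and 68.2 to 79.5 CPM in cKO libraries, and 0 of the 12 tested were called in either direction. *Cdh19*, a cadherin of this lineage, was 4.93 to 22.6 CPM in controls and 6.35 to 20.1 CPM in the cKO group, lowest in replicate 3 of each. *Prx*, on the same list, was instead highest in replicate 3 of each, at 20.2 CPM in the control and 20.9 CPM in the cKO library. Of 16 sensory neuron markers in the table, *Trpv1*, *Isl1*, *Pou4f1* and *Nefm* had at most 3 counts in every library, and 0 of the 8 tested were called. The cell bodies of these neurons lie in the trigeminal ganglion, outside the tooth, and their summed markers, led by *Tubb3*, *Gap43* and *Tac1*, were 135 to 193 CPM in controls and 109 to 157 CPM in cKO libraries. Macrophage markers, of which 0 of 9 were called, summed to 1252, 1465 and 561 CPM in cKO replicates 1, 2 and 3, an order that *Ngfr* and *Ntf3* shared within this group. In control replicates 1, 2 and 3 the sum was 945, 1059 and 738 CPM, and neither gene had that order. There *Ntf3* was also lowest in replicate 3, at 4.03 CPM, but *Ngfr* was highest in it, at 33.1 CPM. Of 7 neutrophil markers tested, 2 were called higher (*Ngp* and *Camp*). The neutrophil sum was 25.3, 16.7 and 7.37 CPM in control replicates 1, 2 and 3. In cKO replicates 1, 2 and 3 it was 76.6, 148 and 7.11 CPM. *Ntf3* had the order of this sum in both groups, and *Ngfr* in the cKO group only. The part of these cells in the difference of *Ngfr* and *Ntf3* was not tested.

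**Figure D2:**
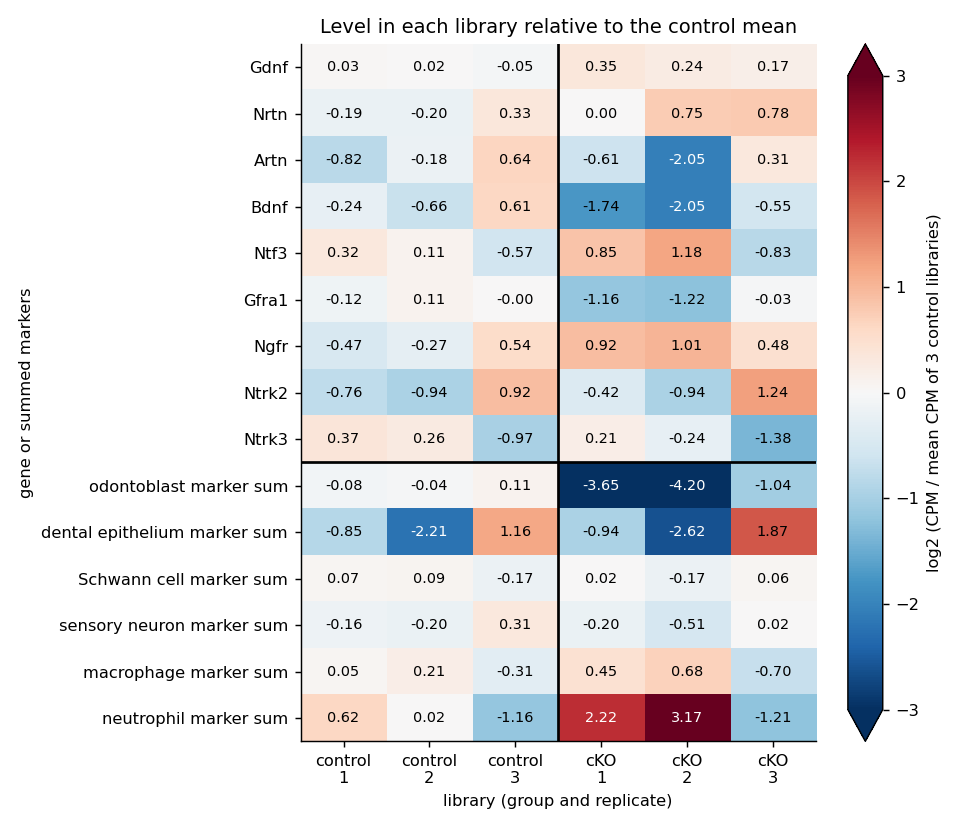
Level of each gene (rows above the line) and sum of each marker list (rows below it) in each library, as log2 of the CPM over the mean of the 3 control libraries. Color runs from blue (lower) to red (higher) and is capped at 3 in either direction. Gfra1 is lower in cKO replicates 1 and 2 and at the control level in replicate 3, as the odontoblast sum is lowest in replicates 1 and 2, while Ntrk2 and the dental epithelium sum are highest in replicate 3 of both groups.

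*Ntrk2* (chr13:58806569-59133970), the gene of TrkB, varied with the replicate number more than with the genotype. It was 7.32 and 6.47 CPM in control replicates 1 and 2 and 23.4 CPM in control replicate 3, a ratio of 3.39 between replicate 3 and the mean of the other two. In cKO libraries it was 9.28, 6.47 and 29.3 CPM, a ratio of 3.72. Both high values were in the libraries with the highest dental epithelium sums, which not every marker of that list followed. The part of dental epithelium in these values was not tested. The log2 fold change between genotypes was 0.28 ± 0.72 with all libraries (edgeR adjusted p = 0.932) and 0.23 ± 0.15 with the replicate number as a block (adjusted p = 0.428). *Ntf5*, the other ligand of TrkB, a gene chosen after its values were seen, was likewise highest in replicate 3, at 4.88 CPM in the control and 8.09 CPM in the cKO library, against 1.42 to 2.06 CPM in the other 4.

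*Ntrk3* (chr7:78175959-78738012), the gene of TrkC, was lowest in replicate 3 of both groups, where *Ntrk2* was highest. Its levels were 158, 145 and 62.1 CPM in control replicates 1, 2 and 3 and 140.2, 103 and 46.8 CPM in cKO replicates 1, 2 and 3. Replicate 3 was at 0.41 of the mean of replicates 1 and 2 in controls and at 0.38 of it in cKO libraries. The log2 fold change was -0.33 ± 0.48 (edgeR adjusted p = 0.874). Within every replicate number the cKO library was lower, with log2 ratios of -0.17, -0.49 and -0.41, and the fit with the replicate block gave -0.36 ± 0.11 (edgeR adjusted p = 0.162), which is under the size threshold. The antisense gene *Gm9885* overlaps *Ntrk3* and had 44 to 62 counts per library against 861 to 2969 for *Ntrk3*, and counting without strand cannot tell reads of the 2 apart where they overlap.

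**Figure D3:**
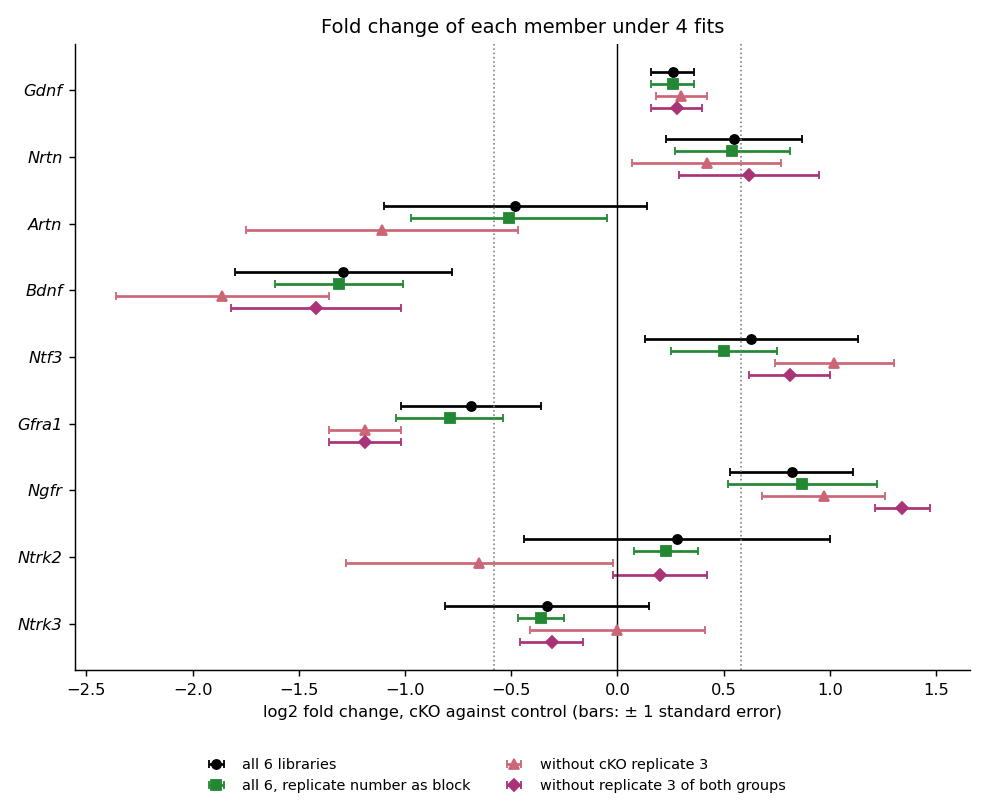
Log2 fold change of each gene, cKO against control, with bars of ± 1 standard error, in edgeR fits of all 6 libraries (black), with the replicate number as a block (green), without cKO replicate 3 (rose) and without replicate 3 of both groups (purple). Dotted lines mark 0.58 in either direction. Bdnf and Gfra1 stay left of 0 and Ngfr, Ntf3, Nrtn and Gdnf right of 0 in these fits, Ntrk2 changes side, Ntrk3 is left of 0 or at it, and Artn was not tested in the last one.

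Levels of different genes were set side by side per kilobase of transcript. On the length of the canonical GENCODE transcript, the order in controls was *Gdnf* (8.59 ± 0.263 CPM per kilobase), *Ngfr* (6.62 ± 2.60), *Ntrk3* (6.17 ± 2.63) and *Ntf3* (4.39 ± 1.30), with SD over 3 libraries. The ranges of mean ± SD of neighbors overlapped among these 4. *Gfra1* followed at 2.55 ± 0.207 CPM per kilobase, below the range of *Ntf3*, and then *Nrtn* at 1.48 ± 0.332, which did not overlap *Gfra1*, and *Ntrk2* at 1.37 ± 1.05, which overlapped both of its neighbors. *Bdnf* at 0.428 ± 0.199 and *Artn* at 0.311 ± 0.157 CPM per kilobase were the lowest and overlapped, so the called ligand was among the least expressed. In cKO libraries *Ngfr* had the highest mean, 11.7 ± 2.17 CPM per kilobase, which overlapped *Gdnf* at 10.3 ± 0.658. The order depended on the length for genes with many transcripts. Over all annotated exons *Ntrk3* was 3.88 ± 1.66 and *Ntrk2* 0.414 ± 0.318 CPM per kilobase in controls, since those exons add up to 31.3 and 29.9 kilobases.

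**Figure D4:**
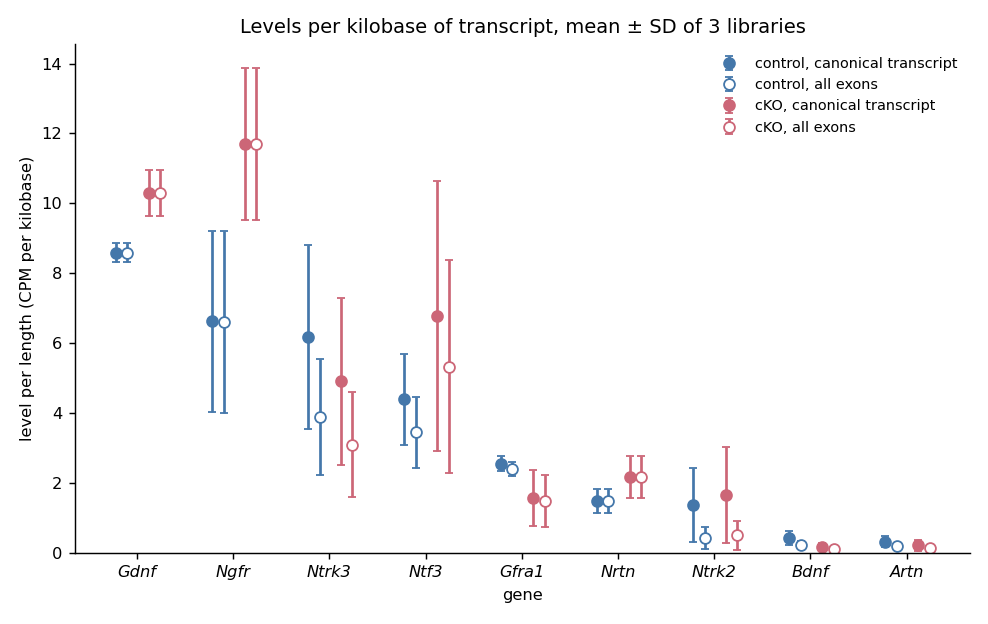
Level per length of each gene (CPM per kilobase, linear axis from 0) as the mean ± SD of 3 libraries, for controls (blue) and cKO libraries (red), on the length of the canonical transcript (filled) or of all annotated exons (open). Gdnf leads in controls at 8.59 and Ngfr in cKO libraries at 11.7, while Ntrk2 and Ntrk3 move down on the longer length.

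The rest of the pathway was followed in 5 lists, of which 78 genes were in the table and 70 were tested. Of these, 4 were lower (*Pcsk5*, *Sort1*, *Egr1* and *Arc*) and 2 were higher (*Cntfr* and *Sorcs1*) at the study's thresholds, against 2.71% and 1.10% of all genes. The median log2 fold change was -0.06 over the 70 genes and 0.02 over all genes tested. With the replicate block the counts were again 4 and 2, against 4.37% and 2.05% of all genes, but *Egr1* (edgeR adjusted p = 0.545) and *Arc* (adjusted p = 0.497) were no longer called, while *Sdc3* and *Dok5* were, the latter a gene named after its values were seen. Without replicate 3 of both groups, 9 of 69 were lower and 3 were higher, the 6 genes named first among them, while the shares of all genes called also rose, to 7.55% and 4.49%. In that fit the edgeR adjusted p of these 6 ran from 2.18e-05 (*Pcsk5*) to 0.0127 (*Cntfr*). On the adjusted p, 4.48% of all genes were lower and 2.33% higher there. *Pcsk5* was called whichever single library was left out. *Sort1* lost its call without cKO replicate 1, *Egr1* without control replicate 1 or 2 or cKO replicate 2, and *Arc* when any one of these 4 was left out. *Cntfr* lost it without control replicate 1 or 3 or cKO replicate 2, and *Sorcs1* when any one library other than cKO replicate 3 was left out.

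Among the other ligands and receptors, 1 of 15 tested was lower and 1 was higher, with a median log2 fold change of -0.13. *Sort1* encodes sortilin, which binds the precursors of the neurotrophins together with NGFR. It was 126, 126 and 134 CPM in controls and 50.1, 43.2 and 99.4 CPM in cKO libraries, with no overlap. Groups that did not overlap were seen for 15.2% of all genes tested. The log2 fold change of *Sort1* was -1.00 ± 0.31 (edgeR adjusted p = 0.625). *Sorcs1*, a receptor of the same family, was 12.6, 12.3 and 12.1 CPM in controls and 24.2, 31.1 and 12.1 CPM in the other group, a log2 fold change of 0.86 ± 0.32 (edgeR adjusted p = 0.636). For *Sorcs1* the third cKO library was at the control level. The 2 genes with the highest levels in the list besides *Sort1* were *Sdc3*, a heparan sulfate proteoglycan that binds GDNF, at 863 to 1133 CPM in controls and 512 to 964 CPM in the other group, and *Gfra2*, the co-receptor for neurturin, at 225 to 253 and 207 to 241 CPM.

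*Ret*, the kinase used by all GDNF family ligands and a gene named after its values were seen, did not pass the thresholds with all libraries. It was 7.53, 10.7 and 11.3 CPM in controls and 6.12, 6.31 and 10.4 CPM in the other group, a log2 fold change of -0.37 ± 0.28, and was called lower without cKO replicate 3.

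In the proprotein processing list, 1 of 6 tested genes was lower. *Pcsk5*, a convertase that cleaves protein precursors, was 213, 218 and 232 CPM in controls and 55.5, 46.1 and 126 CPM in cKO libraries. The groups did not overlap, as was so for 15.2% of all genes tested, and the log2 fold change was -1.54 ± 0.37 (edgeR adjusted p = 0.578). The cKO libraries of *Pcsk5* and *Sort1* had the order of the odontoblast marker sum, which the dental epithelium sum shared in this group. The part of cell makeup was not tested. *Furin*, the convertase best known for neurotrophin precursors, was 171, 195 and 215 CPM against 156, 155 and 189 CPM and did not pass the thresholds, with a log2 fold change of -0.22 ± 0.14. *Plat*, which encodes tissue plasminogen activator, was 102 to 132 CPM in controls and 79.9 to 99.8 CPM in the other group, a log2 fold change of -0.36 that is under the size threshold.

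With all 6 libraries and no block, none of the 25 adaptors and signal transducers was called, and their median log2 fold change was -0.05. *Dok5* was called lower with the replicate block, at -0.76 (edgeR adjusted p = 0.239). Without replicate 3 of both groups, where 7.55% of all genes were lower, *Dok5* was at -1.15 (edgeR adjusted p = 0.00168). *Shc3*, named after its values were seen, was also called lower in that fit, at -1.44 (edgeR adjusted p = 0.127). Voom with quality weights called both lower. *Maged1*, which binds NGFR, had the highest level at 1120 to 1160 CPM in controls and 926 to 947 CPM in cKO libraries (log2 fold change -0.29). *Kidins220*, a scaffold of Trk receptors, was 373 to 420.0 CPM and 314 to 373 CPM. *Arhgdia* was 395 to 603 CPM and 429 to 597 CPM, and *Grb10*, an adaptor of receptor kinases, was 231 to 264 CPM and 248 to 287 CPM.

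Of the 13 response targets tested, genes that Trk or RET signaling can induce, 2 were lower. *Egr1* was 162, 173 and 27.7 CPM in controls and 34.9, 18.1 and 37.8 CPM in cKO libraries, a log2 fold change of -2.00 ± 0.67 (edgeR adjusted p = 0.626). *Arc* was 18.3, 19.6 and 5.27 CPM and 1.39, 0.477 and 5.70 CPM, a log2 fold change of -2.52 ± 0.90 (edgeR adjusted p = 0.629). In both genes the replicate 3 libraries of the 2 groups had similar levels, and the difference was between replicates 1 and 2. *Fos*, another immediate early gene, chosen after its values were seen, was 26.4, 25.1 and 7.09 CPM in controls and 28.0, 28.1 and 11.4 CPM in the other group.

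Among 11 other neurotrophic cytokines and receptors tested, 1 was higher. *Cntfr*, the receptor subunit for ciliary neurotrophic factor, was 52.5, 62.1 and 37.0 CPM in controls and 150.5, 294 and 49.9 CPM in cKO libraries. The third library of the latter group lay within the control range, and the log2 fold change was 1.71 ± 0.59 (edgeR adjusted p = 0.626). *Il6st*, the signaling subunit shared by this receptor family, was 214 to 275 CPM in controls and 228 to 362 CPM in the other group, and *Cntf* itself did not exceed 3 counts in any library.

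**Figure D5:**
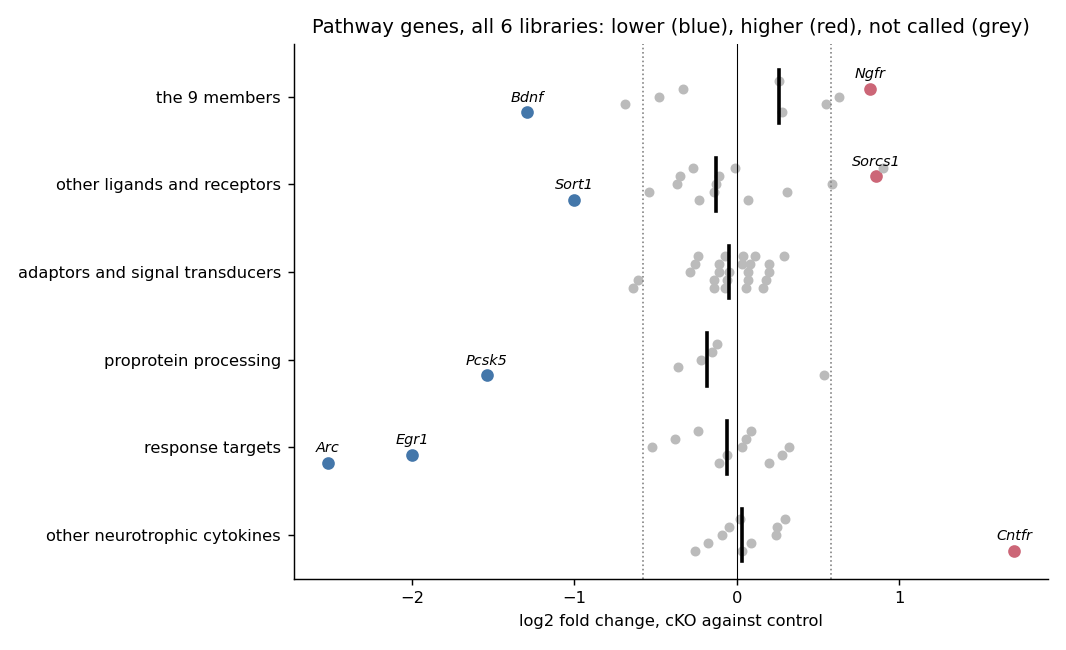
Log2 fold change, cKO against control, of each tested gene (points) in the 9 members and in 5 lists of pathway genes, from the edgeR fit of all 6 libraries. Blue and red points passed the study's thresholds as lower and higher and are named, dotted lines mark 0.58 in either direction, and black bars give the median of each list, which runs from -0.19 for proprotein processing to 0.26 for the members.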

How the data were processed

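RNA-seq of 6 libraries was deposited as 1 table for the series. The authors used HISAT2 for alignment and HTSeq for gene counts, ignoring strand and asking for an alignment quality of at least 10. The deposited count columns hold whole numbers that are not normalized. The submitters' notes name GRCm39 and give no tool versions. Gene positions in the table share a start or end with RefSeq GRCm38.p6 for 47.4% of 24534 matched genes and with GENCODE vM39 on GRCm39 for 1.25% of 30418, so positions are given as GRCm38. Columns of the authors' own comparison (mean, fold change, p-values and calls) were not used. No per-sample column was left unused.

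edgeR 4.0.16 in R 4.3.3 was run on the counts of 16519 of 31613 genes that passed filterByExpr (minimum count 10), with TMM scaling, a robust quasi-likelihood F test and Benjamini-Hochberg adjustment over all of them. CPM use TMM-scaled library sizes. Lengths came from GENCODE vM39 and promoter windows from RefSeq. The fit was tested on simulated counts drawn for each library on its own, which hold no shared deviation of replicate 3. That test thus does not cover such a deviation. Libraries of the same group differed by more than sampling noise. The coefficient of variation between libraries of a group, fitted over all genes tested, was 25.3%.

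The 9 members and the lists of pathway and marker genes were chosen with earlier results of these data known. Named genes were the 9 members, *Setd2*, every called gene of a pathway list and otherwise up to 4 with the highest mean CPM, and up to 3 such genes and the called genes of a marker list. Of the genes listed, *Gfral*, *Plg*, *Nefl* and *Ngfrap1* were not matched, and some listed genes are not reported here. Odontoblast markers (8 of 11 lower, 1 higher), dental papilla (1 of 15 lower), dental follicle and bone (1 of 9 lower) and neutrophil markers (2 of 7 higher) held calls. Dental epithelium, endothelial, mural, macrophage, erythroid, Schwann cell and sensory neuron markers held none.

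Replicate numbers come from the labels. Deviations from the group means correlated over 16519 genes at 0.453, 0.465 and 0.663 for same-numbered libraries, so the numbers were taken to pair them. However, control replicate 2 and cKO replicate 1 reached 0.455, and control replicate 1 and cKO replicate 2 reached 0.380. Only replicate 3 was thus clearly matched, and the pairing of replicates 1 and 2 in the block and in the ratios within replicate numbers is uncertain. Alternatives were DESeq2 1.42.0, RLE factors, scaling that leaves out the 100 highest genes, no count filter, at least 10 counts in every library, voom with quality weights (limma 3.58.1), the replicate block, each library left out, and replicate 3 of both groups left out.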

Additional observations from a re-analysis of the deposited data

How the results depend on the processing

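Scaling by RLE or without the 100 highest genes changed no call of a member. DESeq2 called 2 members lower, as did fitting with no filter, which called 338 genes higher over all genes, and 2 lower and 1 higher among the pathway genes. Requiring 10 counts in every library removed *Bdnf* and *Artn* and left 0 members lower. Voom with quality weights called 1101 genes lower and 444 higher, 2 members in each direction and 9 pathway genes lower. With the replicate block, 722 genes were lower and 339 higher (448 and 181 without it), and 2 members were lower and 0 higher. The block changed no call of a member other than those of *Ngfr* and *Gfra1*. Without replicate 3 of both groups, 1261 genes were lower and 750 higher, with 2 members in each direction and 9 pathway genes lower. In the edgeR fit of all 6 libraries with no block, an adjusted p under 0.05 gave 0 in each direction for all genes, members and pathway genes. Some pathway genes called at the study's thresholds also had an adjusted p under 0.05. These were 1 lower gene with DESeq2, and 7 lower and 2 higher genes with voom. There were 4 lower and 2 higher without cKO replicate 3, and 7 and 2 without replicate 3 of both groups.

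Leaving out single libraries gave 282 to 1161 genes lower and 83 to 677 higher. Members numbered 0 to 2 in each direction, and pathway genes 2 to 10 lower and 0 to 2 higher. The highest of these counts came without cKO replicate 3. *Ntrk2*, with log2 fold changes of -0.65 to 1.11, was negative without control replicate 2 (-0.03) and without cKO replicate 3 (-0.65), and *Ntrk3* (-0.69 to 0.00) reached 0.00 without the latter. The causes were not tested. *Bdnf* and *Artn* had at most 47 and 18 counts in a library. Where a group was left with 2 libraries, edgeR shares the spread between groups.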
